A study of Homo sapiens with 4 samples.

Results

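The RNA levels of 10 genes of the unfolded protein response and the integrated stress response were examined in UM-UC-3 cells, an established human bladder cancer cell line. The genes were chosen by name, as the Ensembl identifiers of ATF4, ATF3, DDIT3, TRIB3, ASNS, CHAC1, SESN2, HSPA5, XBP1 and DNAJB9. All 10 were listed in each of the 4 deposited tables, which hold between 25704 and 26147 genes. RNA-seq was done on total RNA 48 h after transfection with 75 nM siRNA, with 1 library per condition. The control library came from cells given 1 control siRNA, and the si-hnRNPK and si-PTBP1 libraries came from cells given 2 siRNAs against the RNA-binding protein hnRNPK or the splicing regulator PTBP1. The library labelled si-lncRNA-LBCS came from cells given 2 siRNAs against a long non-coding RNA. No stress agent was given to any of the cells, as far as the labels say.

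Unfolded proteins in the endoplasmic reticulum (ER) are sensed by the membrane proteins PERK, IRE1 and ATF6, and the ensuing programme of chaperones, degradation and attenuated translation is the unfolded protein response. PERK is also one of the kinases that phosphorylate the initiation factor eIF2 on its alpha subunit, as do GCN2 on amino acid shortage, PKR on double-stranded RNA and HRI on haem shortage, and what follows from that phosphorylation is the integrated stress response. Phosphorylated eIF2 lowers general translation but favours translation of the ATF4 mRNA, so the level of ATF4 mRNA does not measure ATF4 protein. IRE1 acts by splicing the XBP1 mRNA in the cytoplasm, and the reads per gene used here do not tell spliced from unspliced XBP1.

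The libraries held between 54301152 and 70232674 reads on genes. The siRNA targets were read first. HNRNPK was at 24.0% of the control level in the si-hnRNPK library (187.8 against 783.1 CPM, reads scaled to the same total per library) and PTBP1 was at 32.0% in the si-PTBP1 library (89.7 against 280.0 CPM). The lncRNA gene matched by both si-lncRNA-LBCS siRNAs received 103 reads under that label and 110 with control siRNA, a level of 81.8% relative to control (95% counting interval 61.9% to 108.0%). The knockdown was therefore not detectable at this depth in that library, and every direction given for it is that of a library with this label. Changes are differences in log2(CPM + 1) between a knockdown library and the control library, with a threshold of 1. They were taken for genes that reach 1 CPM in either library. Each interval is an exact 95% Clopper-Pearson interval on the reads that a gene received in a pair of libraries, so it reflects counting alone. No test between conditions was possible with 1 library each. Over all genes tested, the median difference was -0.11 for si-hnRNPK, -0.01 for si-lncRNA-LBCS and 0.12 for si-PTBP1. Of 15 epithelial and urothelial marker genes, 4 or 5 reached 1 CPM, among them the keratin genes KRT7, KRT8 and KRT18. Summed levels over the markers were 155.4 to 218.8 CPM, most of it KRT8 and KRT18 (63.0 and 121 CPM in the control). KRT7 was at 2.85 CPM in the control. EPCAM, KRT5, KRT19, KRT20, GATA3, UPK1A, UPK1B and UPK2 stayed below 1 CPM wherever listed. TP63 reached 1 CPM in si-hnRNPK and si-PTBP1 only. The epithelial marker CDH1 and the urothelial marker UPK3A are not listed. Of 8 markers of blood, endothelial and stromal cells, 2 were listed, at summed levels of 0.342 to 2.34 CPM.

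The siRNAs are shown because 2 siRNAs were given together in each knockdown and a siRNA can also lower RNAs that pair with its seed. Each sequence is the sense strand from 5′ to 3′, and capitals mark the bases that equal a target's match to guide bases 2 to 8.
control siRNA: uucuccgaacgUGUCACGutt
si-hnRNPK siRNA 1: ggguuguagagUGCAUAAatt
si-hnRNPK siRNA 2: gccuccaucuaGAAGAGAutt
si-lncRNA-LBCS siRNA 1: gcugcucauuuGUCUGAUctt
si-lncRNA-LBCS siRNA 2: ggugguagucaACACAAAutt
si-PTBP1 siRNA 1: gccucaacgucAAGUACAatt
si-PTBP1 siRNA 2: cccucauugacCUGCACAatt
Matches to these capitals were counted in the longest annotated 3′ untranslated region of each gene (GENCODE release 29). Between 2.63% (control siRNA) and 17.3% (si-hnRNPK siRNA 2) of 19558 such regions hold a match. Among the 10 stress response genes, ATF3 holds 1 match to si-lncRNA-LBCS siRNA 2 and SESN2 holds 1 match to si-PTBP1 siRNA 1. The other 8 genes, ASNS and CHAC1 included, hold none for any of the siRNAs, and ATF3 holds none for the si-hnRNPK siRNAs.

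Members of this response are known to carry short regulatory sequences in their promoters, and these are shown for the 5 of the 10 genes whose promoters hold one. RefSeq promoters on GRCh38.p14, from 250 bases before to 50 bases after a transcript start, were searched on both strands. All 10 genes matched, with 17 promoters in all. The C/EBP-ATF response element TGATGNAA, which ATF4 with a C/EBP partner is known to bind, is in 3.62% of 35116 promoters, and the ER stress response element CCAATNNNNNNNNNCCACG, known to be bound by ATF6 with NF-Y, is in 0.0769%. Windows of 30 bases on the strand of the gene are printed, with the element in capitals.
ATF3, chr1:212565205-212565234, plus strand: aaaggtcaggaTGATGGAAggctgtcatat
ASNS, chr7:97872458-97872487, minus strand: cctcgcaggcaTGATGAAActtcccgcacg
CHAC1, chr15:40953251-40953280, plus strand: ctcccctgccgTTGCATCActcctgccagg
HSPA5, chr9:125241386-125241415, minus strand: ccttcaCCAATCGGCGGCCTCCACGacggg
XBP1, chr22:28800598-28800627, minus strand: cgctggCCAATCGCGGAGGGCCACGaccgt
The elements begin 191 (ATF3), 68 (ASNS), 209 (CHAC1), 66 (HSPA5) and 52 (XBP1) bases before a RefSeq transcript start, and that of CHAC1 is read on the opposite strand. ATF4, DDIT3, TRIB3, SESN2 and DNAJB9 held neither these letters, nor ATTGGNCCACG of ER stress response element II (0.0541% of promoters), nor TGACGTGG of the unfolded protein response element (0.729%), in these windows. A match is a description of the letters and not of binding. Among the genes of the pathway lists described further on, the C/EBP-ATF letters were held by 1 of 9 genes past the threshold (JDP2) and 20 of 112 other genes with a promoter in the table, and the ER stress response element by 1 (CALR) and 5.

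The 10 genes did not move as 1 group in any of the knockdown libraries. In the si-hnRNPK library ATF3 alone rose past the threshold, to 7.01 times the control level, and none fell. In the si-PTBP1 library ASNS and CHAC1 fell, to 31.2% and 13.0% of the control level, and none rose. In the library labelled si-lncRNA-LBCS none of the 10 passed the threshold. Of all genes tested, 3.55% were at least 1 higher and 3.93% at least 1 lower in si-hnRNPK, 0.378% and 1.01% in si-lncRNA-LBCS, and 2.92% and 0.613% in si-PTBP1. Against these backgrounds stand 1 of 10 genes higher in si-hnRNPK and 2 of 10 lower in si-PTBP1. The 10 genes were chosen with earlier results of these data known, so these counts describe them and are not an independent test. The genes' median difference was 0.35 in si-hnRNPK, with 8 of 10 above 0. It was -0.02 in si-lncRNA-LBCS and -0.08 in si-PTBP1, with 5 of 10 above 0 in both. Of all genes tested, 41.6% lay above 0 in si-hnRNPK, 48.2% in si-lncRNA-LBCS and 63.5% in si-PTBP1. In bulk RNA a change in every cell and a change in a share of the cells cannot be told apart. The comparisons share the control library, so their values are given side by side.

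**Figure D1:**
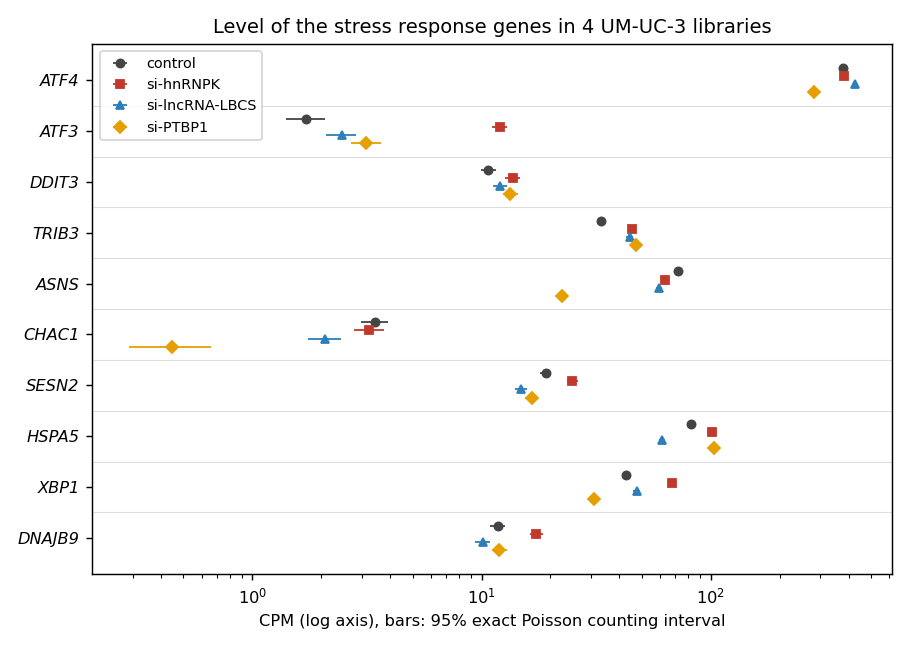
CPM on a log axis of the 10 stress response genes in the 4 libraries (points, 1 library each, with 95% exact Poisson intervals of the reads). ATF3 stands highest in si-hnRNPK at 12.0 CPM, and ASNS and CHAC1 stand lowest in si-PTBP1 at 22.4 and 0.446 CPM.

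Per kilobase of annotated exon, ATF4 was the most abundant of the 10 RNAs in all 4 libraries, between 112.1 CPM per kb (si-PTBP1) and 169.8 CPM per kb (si-lncRNA-LBCS). In the control library it was followed by HSPA5 (21.1 CPM per kb), ASNS (16.2), XBP1 (14.1), TRIB3 (9.70), DDIT3 (8.19), SESN2 (5.52), DNAJB9 (4.15), CHAC1 (1.66) and ATF3 (0.423), and no neighbours in that order had overlapping counting intervals. These intervals reflect counting and not the choice of length. All annotated exons were used, which gives ASNS 4455 bases, HSPA5 3908 and XBP1 3028. Single transcripts can be shorter, so the order holds for this length only. In the si-PTBP1 library ASNS stood at rank 6 with 5.03 CPM per kb, overlapping the next gene SESN2, and CHAC1 was last with 0.217. ATF3 stood above CHAC1 in levels per kb in the si-hnRNPK (2.97 against 1.57) and si-PTBP1 (0.777 against 0.217) libraries, and below it with control siRNA and si-lncRNA-LBCS.

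ATF4 encodes the transcription factor that carries the integrated stress response (chr22:39519695-39522685, plus strand, GENCODE release 29 on GRCh38, as for all gene positions here). Its level was 379 CPM in the control, 384 with si-hnRNPK, 427 with si-lncRNA-LBCS and 282 with si-PTBP1. The highest and lowest libraries differed by 1.51 times, and the si-PTBP1 library was lowest, at 74.5% of control (73.0% to 76.0%), a difference of -0.42. In CPM, the si-hnRNPK and control libraries could not be told apart beyond counting error. With median-of-ratios scaling their difference was 0.13. The log2 factors of that scaling differ from control by -0.11 for si-hnRNPK and 0.13 for si-PTBP1. Statements here that 2 libraries could not be told apart therefore hold for CPM.

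ATF3 encodes a transcription factor that is itself induced by ATF4 and by many other stresses (chr1:212565334-212620777, plus strand). It had 105 reads in the control, 651 with si-hnRNPK, 172 with si-lncRNA-LBCS and 176 with si-PTBP1, or 1.71, 12.0, 2.45 and 3.14 CPM. All 3 knockdown libraries lay above the control library, and the si-hnRNPK library lay far above the other two. Its ratio to control was 7.01 (5.69 to 8.70) in si-hnRNPK, a difference of 2.26 on the log2(CPM + 1) scale (2.05 to 2.46). The differences in si-lncRNA-LBCS and si-PTBP1 were 0.35 and 0.61. The si-PTBP1 level was 0.262 times the si-hnRNPK level (0.220 to 0.310), so ATF3 was highest in si-hnRNPK against each of the other libraries. The C/EBP-ATF letters printed for ATF3 lie in the promoter of the more upstream of its RefSeq starts.

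DDIT3 encodes CHOP, a C/EBP family factor linked to cell death in prolonged ER stress (chr12:57516588-57521737, minus strand). With control siRNA it was at 10.7 CPM, and at 13.7, 12.1 and 13.4 CPM in si-hnRNPK, si-lncRNA-LBCS and si-PTBP1. Each knockdown library lay above control, with differences of 0.33, 0.16 and 0.30, all short of the threshold. With the geometric mean of the other 3 libraries as the reference the si-lncRNA-LBCS difference was -0.05. Of the exon bases of DDIT3, 27.2% overlap MARS on the opposite strand, which was at 178 to 243 CPM, and whether the counting used strand is not given in the sources used here.

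XBP1 encodes the factor that, once its mRNA is spliced by IRE1, drives chaperone and ER-associated degradation genes (chr22:28794555-28800597, minus strand). Its level was 42.7 CPM in the control, 68.1 with si-hnRNPK, 47.6 with si-lncRNA-LBCS and 30.9 with si-PTBP1. The si-hnRNPK and si-PTBP1 libraries were its extremes and differed by 2.20 times. Against control the differences were 0.66, 0.15 and -0.45, none past the threshold.

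TRIB3 encodes a pseudokinase that is a target of ATF4 and CHOP and acts back on ATF4 (chr20:362835-397559, plus strand). It was at 33.3 CPM with control siRNA and between 44.5 and 47.0 CPM in all 3 knockdown libraries, with differences of 0.44 (si-hnRNPK), 0.41 (si-lncRNA-LBCS) and 0.48 (si-PTBP1). The knockdown libraries lay closer to each other than to control. In CPM, the si-hnRNPK level could not be told from either other knockdown level beyond counting error.

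SESN2 encodes sestrin 2, a stress-induced inhibitor of mTORC1 signalling that senses leucine (chr1:28259527-28282491, plus strand). Its level was 19.1 CPM in the control, 24.9 with si-hnRNPK, 14.9 with si-lncRNA-LBCS and 16.6 with si-PTBP1. The si-hnRNPK library alone lay above control (0.37), and the other two lay below (-0.33 and -0.19), all short of the threshold.

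ASNS encodes asparagine synthetase, which makes asparagine from aspartate and glutamine and is a standard target of ATF4 on amino acid shortage (chr7:97852118-97872542, minus strand). It was at 72.0 CPM in the control, 63.3 with si-hnRNPK, 59.6 with si-lncRNA-LBCS and 22.4 with si-PTBP1. Only the si-PTBP1 library stood apart, at 31.2% of control (29.2% to 33.2%), a difference of -1.64 (-1.73 to -1.55). It was also at 0.354 times the si-hnRNPK and 0.376 times the si-lncRNA-LBCS level, so the lower value did not rest on the control library. The differences of the other two libraries were -0.18 and -0.27. Of the 50-base stretches of the ASNS transcript, 82.0% also occur in transcripts of other annotated genes, mainly the same-strand transcript AC079781.5 and the pseudogene ASNSP1. ASNSP1 was at 0.295 CPM or less in every library and AC079781.5 is not listed in the tables used here, so the absolute level of ASNS depends on how such reads were counted.

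CHAC1 encodes a glutathione-degrading gamma-glutamylcyclotransferase that is induced through ATF4 (chr15:40952962-40956519, plus strand). It had 210 reads in the control, 176 with si-hnRNPK, 145 with si-lncRNA-LBCS and 25 with si-PTBP1, or 3.42, 3.24, 2.06 and 0.446 CPM. The si-PTBP1 library was again lowest, at 13.0% of control (8.24% to 19.8%), a difference of -1.61 (-1.82 to -1.37) that is understated by the pseudocount at this low level. It was at 0.138 times the si-hnRNPK (0.0867 to 0.210) and 0.216 times the si-lncRNA-LBCS level (0.135 to 0.332). The si-lncRNA-LBCS difference was -0.53, and the si-hnRNPK library could not be told from control. Both genes that fell in si-PTBP1 hold a C/EBP-ATF element in the windows printed above, as does ATF3, which was higher than control there (0.61).

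HSPA5 encodes BiP, the main Hsp70 chaperone of the ER (chr9:125234853-125241330, minus strand). Its level was 82.4 CPM in the control, 101 with si-hnRNPK, 61.2 with si-lncRNA-LBCS and 104 with si-PTBP1. The si-lncRNA-LBCS library was lowest (-0.42), and the si-hnRNPK (0.29) and si-PTBP1 (0.33) libraries lay above control without a difference in CPM between them beyond counting error. DNAJB9 encodes ERdj4, a co-chaperone of BiP and a target of spliced XBP1 (chr7:108569568-108574850, plus strand). It was at 11.8 CPM in the control, 17.4 with si-hnRNPK, 10.1 with si-lncRNA-LBCS and 12.0 with si-PTBP1, with differences of 0.52, -0.20 and 0.02. It was highest in si-hnRNPK, as XBP1 was, and its si-PTBP1 and control levels could not be told apart.

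**Figure D2:**
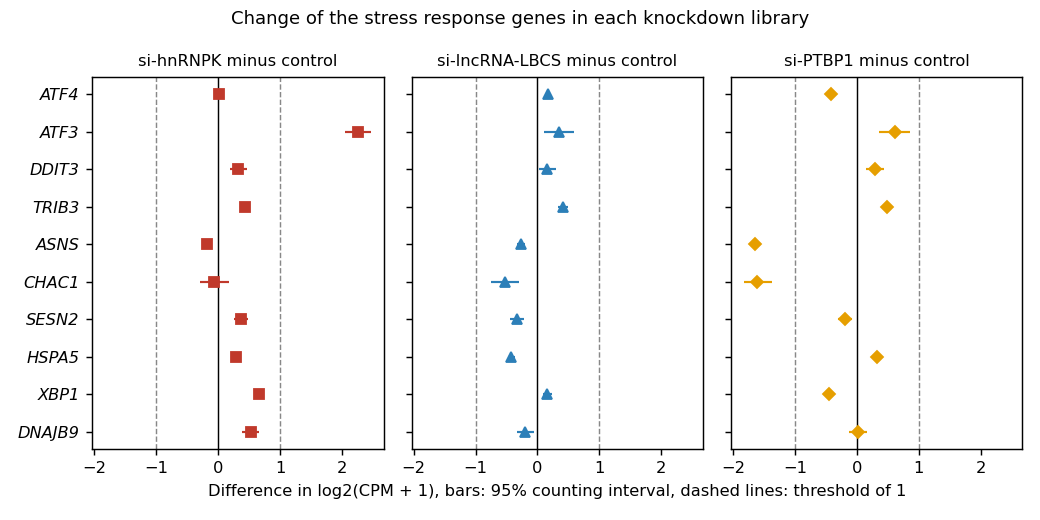
Difference in log2(CPM + 1) of each stress response gene in each knockdown library against the control library (points), with 95% counting intervals (bars) and the threshold of 1 in either direction (dashed lines). ATF3 (2.26) lies past the threshold in si-hnRNPK, ASNS (-1.64) and CHAC1 (-1.61) lie past it in si-PTBP1, and no gene does in si-lncRNA-LBCS.

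The rest of the pathway was read from 10 lists that together hold 148 genes, of which 142 could be tested in each comparison. In si-hnRNPK 5 of the 142 rose and 1 fell, in si-lncRNA-LBCS none rose and 2 fell, and in si-PTBP1 2 rose and 5 fell. That is 3.52% and 0.704% of the list genes in si-hnRNPK, 0% and 1.41% in si-lncRNA-LBCS, and 1.41% and 3.52% in si-PTBP1. The backgrounds given above are 3.55% and 3.93%, 0.378% and 1.01%, and 2.92% and 0.613%. The medians over the list genes were 0.01, 0.00 and 0.02. The lists too were chosen with earlier results of these data known, so their shares beside the backgrounds are descriptions only.

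**Figure D3:**
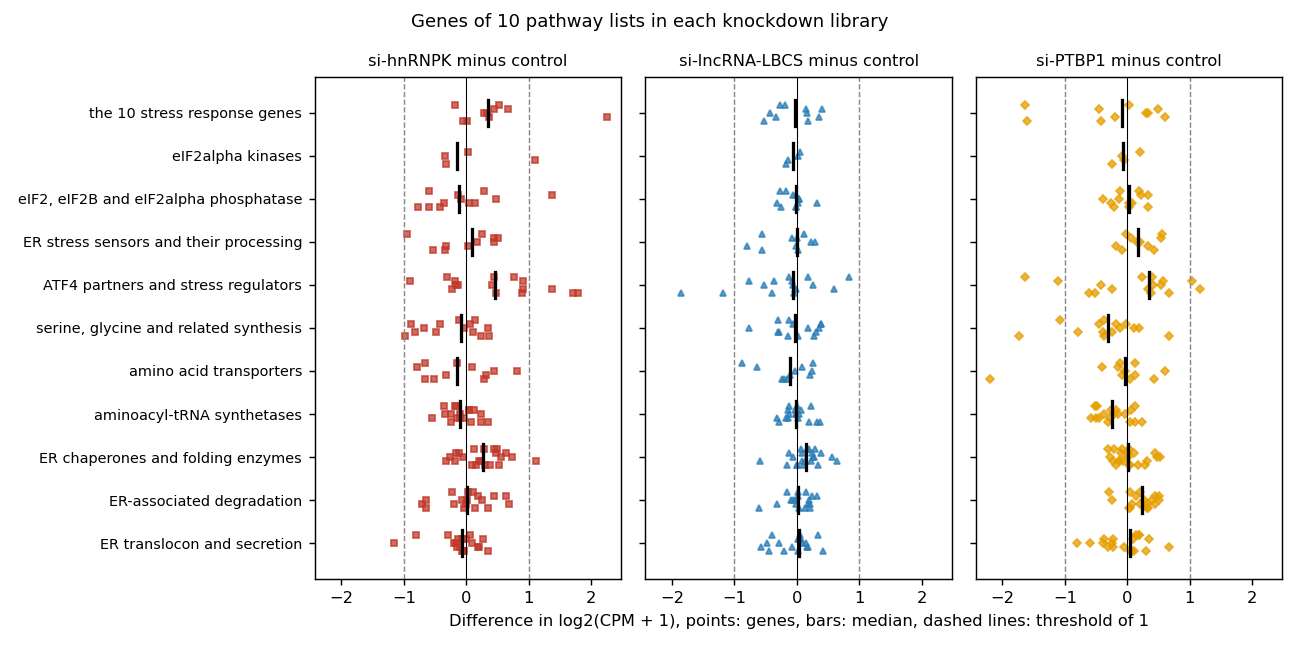
Difference in log2(CPM + 1) against control of the tested genes of the 10 stress response genes and of 10 pathway lists (points), in the 3 knockdown libraries, with each list's median (black bar) and the threshold of 1 (dashed lines). Most points lie within the threshold, and the genes past it sit mainly in the list of ATF4 partners and stress-induced regulators and, in si-PTBP1, among the genes of amino acid synthesis and transport.

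Upstream of ATF4, 1 of the 4 eIF2 alpha kinases passed the threshold, in si-hnRNPK, where 3.55% of all genes tested rose. EIF2AK2, which encodes PKR and is also an interferon-induced gene, was at 81.3 CPM in the control, 175 with si-hnRNPK, 73.5 with si-lncRNA-LBCS and 77.9 with si-PTBP1. It rose in si-hnRNPK to 216% of control (208% to 223%), a difference of 1.10. EIF2AK1 (HRI) ranged from 34.0 to 42.9 CPM, EIF2AK3 (PERK) from 17.1 to 22.1 CPM and EIF2AK4 (GCN2) from 93.8 to 108 CPM, and all of their differences lay between -0.33 and 0.20.

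Among 12 genes of eIF2, its exchange factor eIF2B and the eIF2 alpha phosphatase, PPP1R15A rose in si-hnRNPK and no other gene passed the threshold in any library. That is 8.33% of the 12 genes, next to 3.55% of all genes tested that rose in si-hnRNPK. PPP1R15A encodes GADD34, the inducible subunit that directs protein phosphatase 1 to eIF2 and so restores translation. It was at 47.9 CPM in the control, 126 with si-hnRNPK, 47.5 with si-lncRNA-LBCS and 60.3 with si-PTBP1, which is a difference of 1.38 in si-hnRNPK and 263% of control (252% to 275%). EIF2B3, a subunit of eIF2B, was at 43.2 CPM in the control and 24.9 CPM in the si-hnRNPK library (-0.77).

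Of the ER stress sensors and the factors that process them, 10 of 11 genes were tested and none passed the threshold. ERN1, which encodes IRE1, was at 7.69 CPM in the control, 5.97 in si-hnRNPK, 4.02 in si-lncRNA-LBCS (-0.79) and 9.90 in si-PTBP1. ATF6 was at 66.4 CPM in the control and above it in each of the 3 knockdown libraries, at 90.9, 81.7 and 76.6 CPM. CREB3L2, an ER-bound factor processed like ATF6, was at 9.55 CPM in the control and 4.49 CPM in si-hnRNPK, a difference of -0.94.

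The list of ATF4 partners and stress-induced regulators held the most genes past the threshold, with 16 of 19 tested. In si-hnRNPK 3 rose, none fell and the median was 0.45, next to 3.55%, 3.93% and -0.11 for all genes tested. The risers were HMOX1, BBC3 and PPP1R15A, which stands in both lists. HMOX1 encodes the haem-degrading enzyme heme oxygenase 1 and is also a target of NRF2. It was at 47.7 CPM in the control, 168 in si-hnRNPK (1.79), 12.5 in si-lncRNA-LBCS (-1.85) and 33.1 in si-PTBP1 (-0.51), so it rose in the first and fell in the second. Its 3′ untranslated region holds 1 match to each of both si-lncRNA-LBCS siRNAs and none to the others. BBC3 encodes PUMA, a pro-apoptotic BH3-only protein that is also a p53 target. It was at 5.64 CPM in the control, 20.6 in si-hnRNPK (1.71), 5.44 in si-lncRNA-LBCS and 9.6 in si-PTBP1 (0.67).

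In the library labelled si-lncRNA-LBCS, 2 of the 16 genes fell, HMOX1 and GADD45A, and the median was -0.07. Of all genes tested 1.01% fell there, with a median of -0.01. GADD45A, a growth arrest gene induced by DNA damage and other stresses, was at 48.5 CPM in the control, 90.4 in si-hnRNPK (0.88), 20.8 in si-lncRNA-LBCS (-1.19) and 31.4 in si-PTBP1 (-0.61). Its 3′ untranslated region holds 0 matches to any of the siRNAs. ERO1A, the oxidase of disulphide formation in the ER, was at 145 CPM in the control and 259 CPM in si-lncRNA-LBCS (0.83), short of the threshold.

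In si-PTBP1, 2 of these 16 genes rose and 2 fell, with a median of 0.35, next to 2.92%, 0.613% and 0.12 for all genes. DDIT4, which encodes the mTORC1 inhibitor REDD1, was at 123 CPM in the control, 232 in si-hnRNPK (0.92), 117 in si-lncRNA-LBCS and 253 in si-PTBP1 (1.04). KLHL24, a ubiquitin ligase adaptor, was at 9.24 CPM in the control, 18.2 in si-hnRNPK (0.91), 14.4 in si-lncRNA-LBCS (0.59) and 22.0 in si-PTBP1 (1.17). With median-of-ratios scaling KLHL24 (1.05) but not DDIT4 was past the threshold, and against the geometric mean of the other 3 libraries neither was. Median-of-ratios scaling also took both past it in si-hnRNPK, at 1.03 (DDIT4) and 1.02 (KLHL24). JDP2, a repressor of AP-1 and a relative of ATF3, was at 13.6 CPM in the control, 10.9 in si-hnRNPK, 15.6 in si-lncRNA-LBCS and 3.73 in si-PTBP1 (-1.63). VLDLR, a lipoprotein receptor known as an ATF4 target, was at 22.2 CPM in the control and lower in all 3 knockdown libraries, at 11.4, 12.6 and 9.72 CPM, with the threshold passed in si-PTBP1 (-1.11). On the log2(CPM + 1) scale the si-PTBP1 counting intervals of VLDLR (-1.25 to -0.978) and DDIT4 (0.997 to 1.08) reach inside the threshold. Calls from the counting interval of the read ratio kept both past it.

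Amino acid supply is the branch of the ATF4 programme to which ASNS belongs. Of 14 genes of serine, glycine, proline and related synthesis, 2 fell in si-PTBP1 and none rose. Their median was -0.31 and 11 lay below 0. Of all genes, 63.5% lay above 0 and 0.613% fell in si-PTBP1, with a median of 0.12. PHGDH, the first enzyme of serine synthesis, was at 46.6 CPM in the control, 23.1 in si-hnRNPK (-0.98), 42.1 in si-lncRNA-LBCS (-0.14) and 13.3 in si-PTBP1 (-1.73). SHMT2, which converts serine to glycine in mitochondria, was at 211 CPM in the control, 194 in si-hnRNPK, 172 in si-lncRNA-LBCS and 99.1 in si-PTBP1 (-1.08). PSAT1, the next enzyme after PHGDH, was at 36.4 CPM in the control, 20.3 in si-hnRNPK (-0.81) and 20.7 in si-PTBP1 (-0.78), while PSPH, which completes the route, was at 18.1 to 23.2 CPM. In si-hnRNPK none of the 14 passed the threshold, PHGDH being just inside it.

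Of 11 amino acid transporter genes tested, SLC7A11 fell in si-PTBP1 and no other gene passed the threshold in any library. That is 9.09% of the 11 genes, next to 0.613% of all genes tested that fell in si-PTBP1. SLC7A11 encodes the cystine importer xCT, which supplies glutathione synthesis. It was at 31.2 CPM in the control, 38.1 in si-hnRNPK, 26.9 in si-lncRNA-LBCS and 5.99 in si-PTBP1, or 19.2% of control (17.1% to 21.6%) and a difference of -2.20. SLC38A2, the glutamine and neutral amino acid carrier, was at 493 CPM in the control and above it in the other libraries, at 867 (0.82), 582 (0.24) and 750 CPM (0.61). None of the 18 aminoacyl-tRNA synthetase genes passed the threshold in any library. In si-PTBP1 13 of the 18 lay below 0 with a median of -0.24, where all genes had a median of 0.12 and 63.5% above 0, the lowest being CARS1 (-0.58), IARS1 (-0.52) and YARS1 (-0.51).

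Of the genes that fell in si-PTBP1, the 3′ untranslated regions of ASNS, CHAC1, PHGDH and SHMT2 hold no match to a si-PTBP1 siRNA seed. The region of SLC7A11 holds 1 match to each si-PTBP1 siRNA, 1 to the control siRNA and 2 to si-lncRNA-LBCS siRNA 2. That of JDP2 holds 2 matches to si-PTBP1 siRNA 2 and 1 to the control siRNA and each si-hnRNPK siRNA. That of VLDLR holds 1 match to si-PTBP1 siRNA 1, 2 to each si-lncRNA-LBCS siRNA and 3 to si-hnRNPK siRNA 2. Against the geometric mean of the other 3 libraries, VLDLR and SHMT2 were not past the threshold and PHGDH (-1.36), JDP2 (-1.59) and SLC7A11 (-2.23) were.

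**Figure D4:**
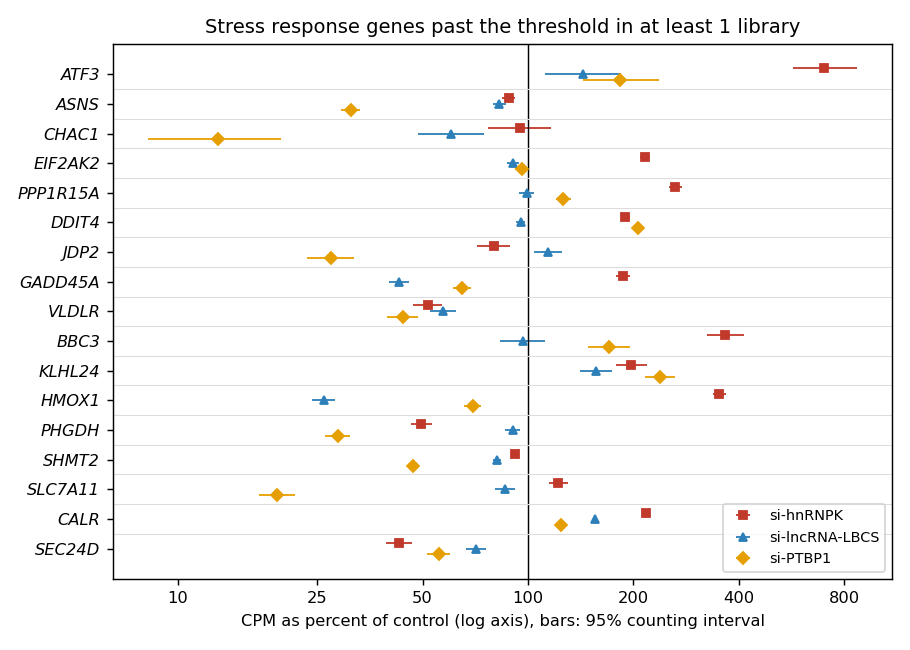
CPM as a percent of the control library on a log axis for the 17 stress response and list genes past the threshold in at least 1 knockdown library (points, with 95% counting intervals). HMOX1 lies at 352% in si-hnRNPK and 26.1% in si-lncRNA-LBCS, and ASNS (31.2%), CHAC1 (13.0%), PHGDH (28.6%), JDP2 (27.3%) and SLC7A11 (19.2%) lie lowest in si-PTBP1.

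On the protein folding side, 1 of 22 ER chaperone and folding enzyme genes passed the threshold, in si-hnRNPK. That is 4.5% of the list, near the 3.55% of all genes tested that rose there. CALR, the calcium-binding lectin chaperone calreticulin, was at 570 CPM in the control, 1242 in si-hnRNPK, 887 in si-lncRNA-LBCS and 708 in si-PTBP1. It rose in si-hnRNPK to 218% of control (215% to 221%), a difference of 1.12, and lay above control in the other two (0.64 and 0.31). In si-hnRNPK 16 of the 22 genes lay above 0 with a median of 0.26, next to 41.6% and -0.11 for all genes. CRELD2 (0.73), SIL1 (0.64) and DNAJC3 (0.56) followed CALR there. In si-lncRNA-LBCS 17 of the 22 lay above 0 with a median of 0.15, next to 48.2% and -0.01 for all genes. HSPA5 lay below 0 there. In si-PTBP1 11 of the 22 lay above 0, with a median of 0.01, next to 63.5% and 0.12 for all genes.

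None of the 18 ER-associated degradation genes tested passed the threshold. In si-PTBP1 16 of the 18 lay above 0 with a median of 0.23, next to a median of 0.12 and 63.5% above 0 for all genes, among them MAN1B1 (0.51), which trims mannose from misfolded glycoproteins. In si-hnRNPK the genes spread from -0.71 (UBXN4) to 0.68 (EDEM2). Of 19 translocon and secretion genes, SEC24D, a cargo adaptor of COPII vesicles, fell in si-hnRNPK and no other gene passed the threshold. That is 5.26% of the 19 genes, next to 3.93% of all genes tested that fell in si-hnRNPK. SEC24D was at 30.9 CPM in the control and lower in all 3 knockdown libraries, at 13.2 (-1.17), 22.0 (-0.47) and 17.2 CPM (-0.81). Its 3′ untranslated region holds 1 match to si-hnRNPK siRNA 2 and none to the others. Set against the geometric mean of the other 3 libraries neither SEC24D nor CALR was past the threshold in si-hnRNPK.

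For the gene with the largest difference on the log2(CPM + 1) scale in each comparison, the genes closest in their 3 differences were listed among genes at 10 CPM or more in any library. Closeness is a Euclidean distance over 3 differences that share the control library. Of 9451 genes, those nearest to ATF3 were SP110 (distance 0.306), HDAC9 (0.332) and HERC6 (0.342), and those nearest to ASNS, which was ahead of CHAC1 in si-PTBP1 on this scale but not in percent of control, were MRPL17 (0.141), SMARCD2 (0.220) and STK26 (0.282). For CHAC1, which had the largest difference in si-lncRNA-LBCS, ASNS was the nearest of 9452 genes (0.289), ahead of FAM167A (0.332) and MSMO1 (0.349). That nearness holds for this scale only, because the pseudocount understates the fall of CHAC1 in si-PTBP1. There CHAC1 was at 13.0% and ASNS at 31.2% of control.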

How the data were processed

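Total RNA of 4 UM-UC-3 cultures, 1 per siRNA condition, was sequenced in pairs of 100-base reads. For each library the authors deposited the CPM of each Ensembl gene identifier. The submitters' notes name hg19, and the aligner, counting method, annotation and strand setting are not given in the sources used here. CPM values were whole multiples of 1 read for 100% of genes with reads (tolerance 0.01 read), which gave the reads per gene and the intervals. Symbols were found for 25647 of 27629 identifiers.

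Differences are in log2(CPM + 1), with genes kept at 1 CPM or more in at least 1 of 2 libraries and a threshold of 1. A count of 0 would allow up to 3 reads, or 0.0427 to 0.0552 CPM. Lengths, positions, transcripts and 3′ untranslated regions come from GENCODE release 29 and promoters from RefSeq. No column of the tables was left unmapped.

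Named genes were the 10 genes, the siRNA targets, the 4 eIF2 alpha kinases, up to 4 genes of each list with the largest difference in a comparison, and 3 nearest genes per leading gene. The members and lists were chosen with earlier results of these data known. Alternatives were median-of-ratios scaling over 12362 genes, a threshold of 1.5-fold, a filter of 5 CPM or none, a pseudocount of 0.1, the geometric mean of the other 3 libraries as the reference, and calls from the counting interval of the read ratio. Scripts were tested on simulated data and ran with scipy 1.17.1, pandas 2.3.3, numpy 2.4.6 and matplotlib 3.10.9 in Python 3.11.15.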

Additional observations from a re-analysis of the deposited data

How the results depend on the processing

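No paired analysis was possible because each condition has 1 library, and for the same reason nothing here separates a knockdown from the culture it was done in. Of the 30 differences of the 10 genes (10 genes in 3 comparisons), 30 stayed on their side of the threshold under every alternative that gives a difference, and 22 kept their sign. The 8 others, between -0.53 and 0.61, were ASNS and CHAC1 in si-hnRNPK, ATF3, DDIT3, ASNS and CHAC1 in si-lncRNA-LBCS, and ATF3 and DNAJB9 in si-PTBP1. The filter settings cannot change a difference, so they add nothing to this tally. The counting-interval setting entered it as the log2 ratio of reads without its interval. At a threshold of 1.5-fold 2 of the 10 genes were higher in si-hnRNPK and 1 in si-PTBP1, and with a filter of 5 CPM, which removes CHAC1, 1 was lower in si-PTBP1. The median of the 10 genes was 0.45 in si-hnRNPK and -0.20 in si-PTBP1 with median-of-ratios scaling, and 0.50 and -0.23 against the geometric mean of the other libraries.

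Counts over all genes moved more than those of the 10 genes. A pseudocount of 0.1 gave 790 higher and 995 lower in si-hnRNPK, 165 and 353 in si-lncRNA-LBCS, and 793 and 173 in si-PTBP1. The 1.5-fold threshold gave 1352 and 2165, 559 and 774, and 1673 and 432. Median-of-ratios scaling turned 486 higher and 537 lower in si-hnRNPK into 610 and 374, and 404 and 85 in si-PTBP1 into 256 and 132. The geometric mean reference gave 317 higher in si-hnRNPK, 6 in si-lncRNA-LBCS and 234 in si-PTBP1. Calls from the counting interval of the reads were 530 and 558 in si-hnRNPK, 62 and 172 in si-lncRNA-LBCS, and 456 and 93 in si-PTBP1. For the list genes, the 1.5-fold threshold gave 14 higher and 17 lower in si-hnRNPK, 3 and 8 in si-lncRNA-LBCS, and 6 and 9 in si-PTBP1. A pseudocount of 0.1 gave 5 lower in si-hnRNPK and 5 lower in si-lncRNA-LBCS. In si-PTBP1 median-of-ratios scaling gave 1 higher, and the geometric mean reference 1 higher and 3 lower. At 25 reads, CHAC1 in si-PTBP1 is the least precise level, which the counting interval shows.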
